A study of Mus musculus with 8 samples.

Results

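A set of genes of canonical WNT signalling was followed in the heart field of the mouse embryo, the region of mesoderm that supplies cells to the forming heart tube. The 10 genes were chosen by name and comprise 5 secreted WNT antagonists (*Sfrp1*, *Sfrp2*, *Sfrp5*, *Frzb* and *Dkk1*) and 5 genes read as targets or nuclear effectors of beta-catenin (*Axin2*, *Lef1*, *Tcf7*, *Nkd1* and *Sp5*). All 10 had a row in the count table of 48526 genes, and all 10 were among the 9744 genes that passed the filter on low counts, 20 or more normalized counts in 4 or more of the 8 libraries. The libraries came from 4 wild-type male C57bl6/J embryos at stage E8.5f, named L29-3, L43-5, L46-8 and L49-3, each split into a left and a right heart field that were sequenced separately as polyA RNA. No embryo carried an allele or a treatment, so the comparison is between the 2 sides of the same animals, paired by embryo. Where 4 values of a side are listed, they stand in this order of the embryos.

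In the canonical pathway, a secreted WNT ligand binds a Frizzled receptor together with LRP5 or LRP6, the complex that degrades beta-catenin is inhibited, and beta-catenin enters the nucleus to activate genes with TCF and LEF proteins. Secreted frizzled-related proteins, of which *Frzb* encodes one, bind WNT ligands in the extracellular space, whereas DKK1 blocks the LRP co-receptors. *Axin2*, *Nkd1* and *Sp5* are switched on by the pathway in many tissues and restrain it in turn. In the early embryo, canonical WNT signalling promotes the expansion of second heart field progenitors, and its antagonists accompany differentiation of the myocardium.

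Depth and makeup of the libraries bear on every value below. After removal of duplicates by the authors, library totals ranged from 1147446 to 3520753 counts, and embryo L49-3 had the lowest total on either side. Defining genes of the heart field were detected: all 10 genes of a second heart field list and all 8 of a juxta-cardiac and inflow field list passed the filter. The authors removed the heart during dissection, and 9 of 10 cardiomyocyte genes still passed. Their summed normalized count ranged from 881 to 6898 over the libraries, and the source of this RNA was not tested. Genes listed for other tissues were detected as well, which does not by itself place their RNA in those tissues. Beside 9744 of all 48526 genes, 8 of 12 neural tube genes, 6 of 8 surface ectoderm genes and 9 of 10 foregut endoderm genes passed. *Olig2*, *Hes5*, *Zic1* and *Dbx1* of the neural tube list did not. Neither did *Trp63* and *Grhl3* of the surface ectoderm list, at mean normalized counts of 1.37 and 10.7, or *Nkx2-1* of the foregut endoderm list. Genes of endothelium passed at 8 of 10, of paraxial mesoderm at 6 of 10 and of cranial neural crest at 2 of 8. Embryo L49-3 stood apart. Over the 8 juxta-cardiac and inflow field genes, its summed normalized count was 410 (left) and 487 (right), against 830 to 1649 in the other 6 libraries, and its sum over the 12 neural tube genes was 1034 and 1147, against 443 to 800. *Tbx5*, a transcription factor of the inflow region, had 20.1 and 19.9 normalized counts on the sides of L49-3 and a mean of 132 in the other embryos. In bulk tissue, fewer cells of a type and less RNA per cell cannot be told apart.

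The 10 genes covered a wide range of levels. Per kilobase of exon, *Sfrp1* and *Sfrp5* stood far above the rest, at 153 ± 29.7 and 136 ± 50.1 normalized counts per kb (mean ± SD over 8 libraries), and their order was open because *Sfrp1* was the higher in only 4 of 8 libraries. *Sfrp5* exceeded the gene below it, *Tcf7*, in 8 of 8 libraries. *Tcf7*, which encodes TCF1, a DNA-binding partner of beta-catenin, reached 41.6 ± 7.41 normalized counts per kb and *Frzb* 30.1 ± 9.13, with *Tcf7* above in 6 of 8. The next 4 genes lay within a narrow band. *Nkd1*, a cytoplasmic inhibitor that acts on Dishevelled, had 23.4 ± 4.51 normalized counts per kb, *Axin2*, the feedback scaffold of the destruction complex, 22.2 ± 3.43, *Sp5*, a transcriptional repressor of the SP family, 20.3 ± 8.69, and *Sfrp2* 19.4 ± 5.42. Neighbours in this band exceeded each other in only 3 to 5 of 8 libraries, so their order does not hold beyond the spread. *Lef1*, the other nuclear partner of beta-catenin in the set, had 13.8 ± 2.97 and *Dkk1* was lowest at 11.5 ± 4.09. The place of *Lef1* depended on the length used: its exons together span 8788 bases but its longest transcript 3656, and with the latter it had 33.1 normalized counts per kb and rose from rank 9 to rank 4.

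**Figure D1:**
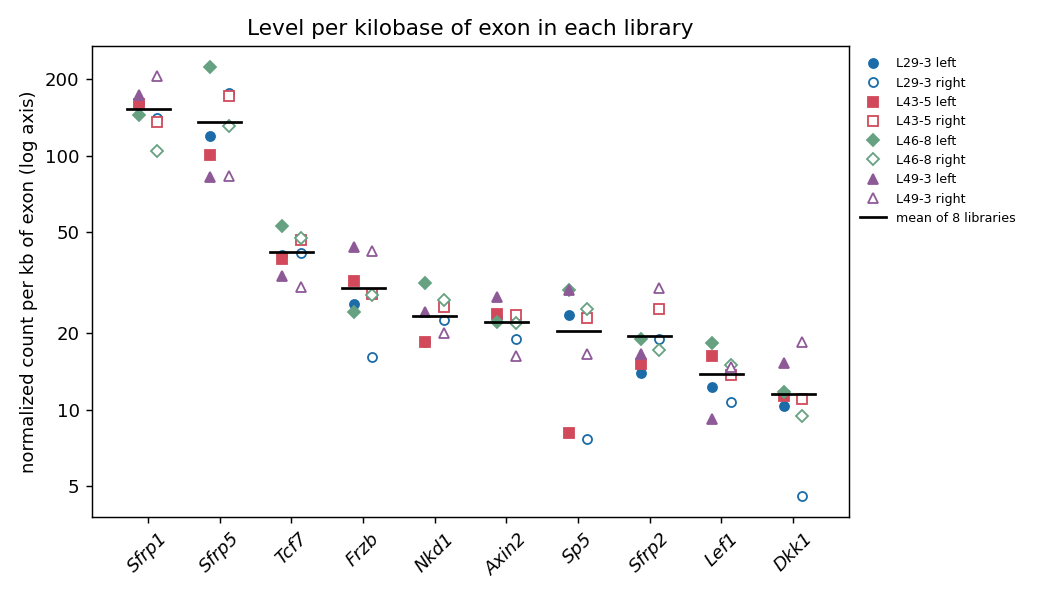
Normalized count per kilobase of exon (log axis) of the 10 genes in each of the 8 libraries, ordered by mean, with filled symbols for left, open symbols for right and a black line for the mean of 8 libraries. *Sfrp1* and *Sfrp5* range from 82.3 to 222 per kb, above every library of the other 8 genes, which range from 4.59 to 53.0.

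Between left and right heart fields, *Sfrp2* alone among the 10 genes passed the threshold of the study, being lower on the left, and no gene of the set passed after adjustment. With this threshold, a fold change of at least 1.2 either way and an unadjusted p of at most 0.05, the quasi-likelihood test of edgeR, with sides paired by embryo, called 1 of the 10 genes, against 3.05% of the 9744 genes tested. After Benjamini-Hochberg adjustment over all genes, 0 of the 10 genes were below 0.05, against 0.0103% of all genes, and adjusted p ranged from 0.987 to 0.996. At an unadjusted p under 0.05 the count was 1 in edgeR, 1 in limma-voom and 0 in DESeq2. The left and right groups of 4 libraries overlapped for all 10 genes, and failed to overlap for 2.51% of all genes tested. The median log2 fold change of left over right was 0.11 for the 10 genes and −0.0042 over all genes tested, with 6 of the 10 above 0 and 4 below. Over all genes tested, 4734 were above 0 and 5010 below.

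**Figure D2:**
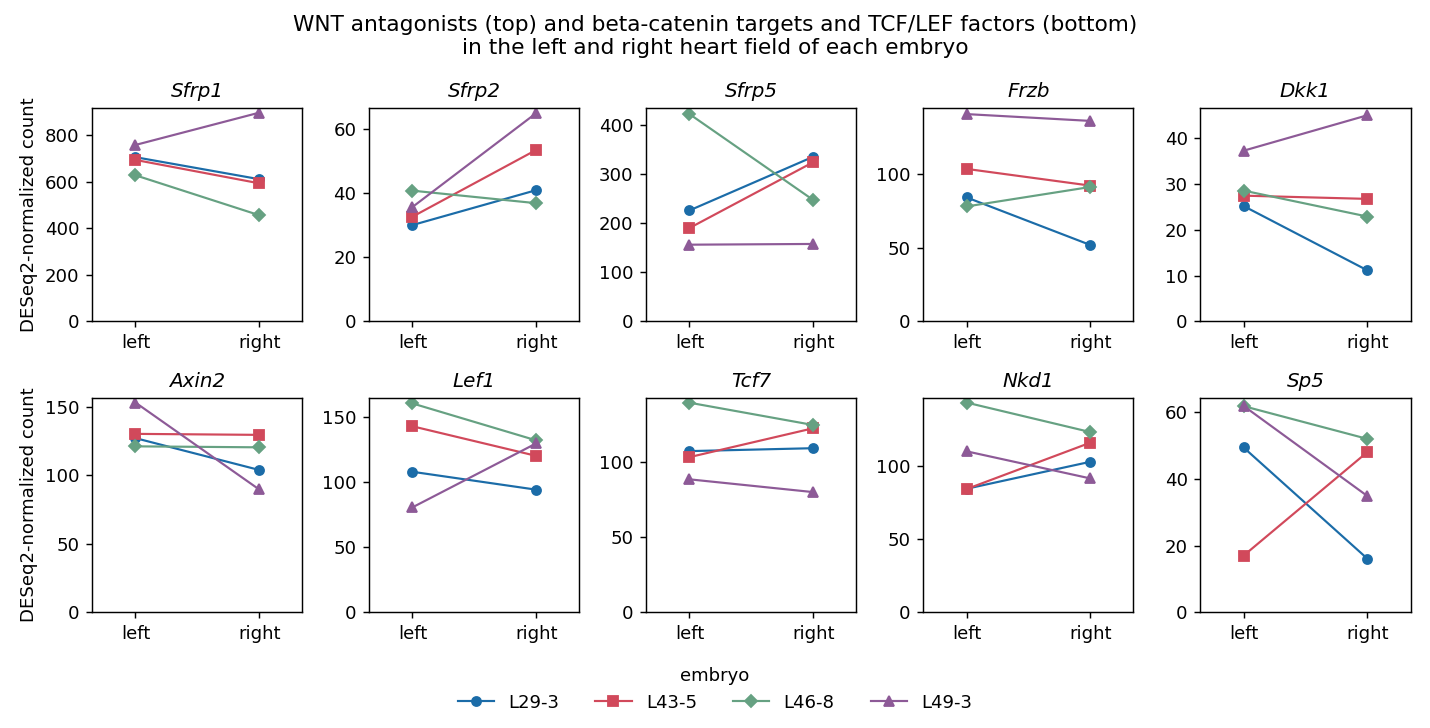
DESeq2-normalized count of each gene in the left and right heart field, on axes that start at 0, with 1 line for each embryo and the antagonists in the upper row. *Axin2* is the gene whose 4 lines all fall from left to right, 2 of them by almost nothing, and the lines of *Sp5* and *Sfrp5* cross most widely.

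Among the antagonists, *Sfrp2* (chr3:83766321-83774316, + strand, GRCm38) encodes a secreted frizzled-related protein that binds WNT ligands. Its normalized counts were 30.0, 32.6, 40.7 and 35.6 on the left, and 40.9, 53.4, 36.8 and 64.8 on the right. The right side was the higher in 3 of 4 embryos, with L46-8 the exception, and the groups overlapped between 36.8 and 40.7. The mean left value was 34.7 ± 4.59 and the mean right value 48.96 ± 12.7 (SD, n = 4). The log2 fold change of left over right was −0.48 with SE 0.207 and a 95% interval from −0.93 to −0.03, or 1.39-fold more on the right. edgeR's quasi-likelihood test gave an unadjusted p of 0.0402 and a Benjamini-Hochberg adjusted p of 0.987. The call rests on few counts, 23 to 100 per library, and on several embryos. It was lost in DESeq2, at a log2 fold change of −0.47, and in the edgeR test without L29-3, L43-5 or L49-3, at log2 fold changes from −0.48 to −0.37. It was kept without L46-8, at −0.67, with an adjusted p of 0.996. The neural tube sum moved the same way as *Sfrp2* in 2 of the 3 embryos with more *Sfrp2* on the right, 443 (left) and 800 (right) for L43-5 and 1034 and 1147 for L49-3, but not in L29-3 (735 and 600), nor in L46-8, where the neural tube sum was 500 and 726 while *Sfrp2* was slightly higher on the left. *Irx3*, the largest part of the neural tube sum at a mean of 295, had 132 (left) and 330 (right) in L43-5. In the other 3 embryos *Irx3* was higher on the left. Of the 8 neural tube genes tested, 7 had a log2 fold change below 0 (median −0.27), and *Sox1* (−0.98) and *Pax6* (−0.83) were lower on the left past the threshold of the study. The juxta-cardiac and inflow field sum was higher on the same side as *Sfrp2* in every embryo. It was 1018, 1128, 1649 and 410 on the left, and 1540, 1259, 830 and 487 on the right. Of its 8 genes tested, 4 had a log2 fold change below 0 (median 0.02). The cardiomyocyte sum was higher on the same side as *Sfrp2* in all embryos but L29-3, and its 9 tested genes all had log2 fold changes below 0. The part of neural tissue or of these other tissues in the *Sfrp2* difference was not tested.

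*Sfrp1* (chr8:23411502-23449632, + strand), a family member closely related to *Sfrp2* and *Sfrp5*, was the most abundant gene of the set by count. Left normalized counts were 706, 694, 628 and 759, and right normalized counts 612, 594, 457 and 897. Left exceeded right in 3 embryos, while the highest value of all was the right side of L49-3. The log2 fold change of left over right was 0.16 with SE 0.0949, an interval from −0.05 to 0.37 and an adjusted p of 0.987 in edgeR's test. Without L49-3, the embryo with little inflow field RNA, it was 0.29 and past the threshold of the study, with an adjusted p of 0.9997.

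*Sfrp5* (chr19:42197971-42202252, − strand), which is known from the foregut and from progenitors of the cardiac inflow, was, like *Sfrp1*, an antagonist whose sides differed within embryos in both directions. Left normalized counts were 226, 190, 422 and 156, and right normalized counts 335, 324, 247 and 158. The direction thus turned between embryos: more on the right in L29-3 and L43-5, more on the left in L46-8, and almost equal in L49-3. Each of the first 3 differences was larger than counting error, since the 95% counting interval of the log2 ratio of left to right ran from −0.815 to −0.322 in L29-3, from −0.975 to −0.565 in L43-5 and from 0.531 to 1.02 in L46-8. PCR copies can remain in the counts, so these intervals cover counting error only. Over the 4 pairs the log2 fold change was −0.18 with SE 0.196, an interval from −0.60 to 0.25 and an adjusted p of 0.987 in edgeR's test. Without L46-8 it was −0.53 and past the threshold of the study, with an adjusted p of 0.624, and without L43-5 it was 0.08. The juxta-cardiac and inflow field sum was higher on the same side as *Sfrp5* in the 3 embryos whose sides differed in *Sfrp5*, with left sums of 1018, 1128, 1649 and 410 and right sums of 1540, 1259, 830 and 487. The foregut endoderm sum was higher on the same side as *Sfrp5* in L29-3 and L46-8, but not in L43-5 (531 left, 487 right). The cardiomyocyte sum was higher on the same side as *Sfrp5* in L43-5 and L46-8, but not in L29-3 (6898 left, 6428 right). The part of these tissues in the *Sfrp5* values was not tested.

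*Frzb* (chr2:80411970-80447625, − strand), which encodes the frizzled-related protein FRZB or sFRP3, showed little difference between sides outside 1 embryo. Left normalized counts were 84.3, 104, 78.1 and 141, and right normalized counts 52.0, 92.3, 91.4 and 136. Embryo L49-3 was the highest on either side, and the groups overlapped almost throughout. Left over right, its log2 fold change was 0.15 with SE 0.148, an interval from −0.17 to 0.47 and an adjusted p of 0.987 in edgeR's test. It was 0.01 without L29-3 and 0.27 without L46-8.

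*Dkk1* (chr19:30545863-30549665, − strand), the LRP-binding antagonist, was measured from 9 to 50 counts a library. It had left normalized counts of 25.1, 27.4, 28.5 and 37.2, and right normalized counts of 11.1, 26.7, 22.8 and 44.9. The left values varied by less than the right values, which held both the lowest and the highest library of the gene. The paired fit gave a log2 fold change of left over right of 0.23 with SE 0.259 and an adjusted p of 0.987 in edgeR's test. Its interval, −0.33 to 0.79, leaves room for a difference either way at this depth. The value was 0.02 without L29-3 and 0.40 without L49-3.

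Of the targets, *Axin2* (chr11:108920349-108950783, + strand) is the most widely used transcriptional readout of beta-catenin. It had left normalized counts of 127, 130, 121 and 153, and right normalized counts of 104, 130, 121 and 89.7. *Axin2* was the only one of the 10 genes with the same direction in all 4 embryos, higher on the left, a pattern that 12.4% of all tested genes showed in one direction or the other. In L43-5 and L46-8, however, the log2 ratios were 0.0076 and 0.0021, far within counting error. The ratio of L29-3 (0.30) was within counting error as well, with a counting interval from −0.10 to 0.69. Only the difference in L49-3 (0.76) was larger than counting error, with a counting interval from 0.28 to 1.28. Over all pairs the log2 fold change of left over right was 0.22 with SE 0.134, an interval from −0.07 to 0.52 and an adjusted p of 0.987 in edgeR's test. Without L49-3 it was 0.09.

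*Lef1* (chr3:131110471-131224356, + strand) and *Tcf7* (chr11:52252371-52283014, − strand) are among the genes for HMG-box proteins through which beta-catenin reaches DNA, and *Lef1* is itself induced by the pathway. *Lef1* had left normalized counts of 108, 143, 160 and 80.5, and right normalized counts of 94.1, 120, 132 and 130. It was slightly higher on the left in 3 embryos and lower on the left in L49-3, where the log2 ratio was −0.69. *Tcf7* had left normalized counts of 107, 103, 139 and 88.3 and right normalized counts of 109, 122, 124 and 79.8, with 2 embryos in each direction. The log2 fold changes of left over right were 0.07 (SE 0.149, interval −0.25 to 0.40) for *Lef1* and −0.02 (SE 0.119, interval −0.28 to 0.24) for *Tcf7*, with adjusted p of 0.987 and 0.996 in edgeR's test. Without L49-3 the value of *Lef1* was 0.24. The *Tcf7* interval is the second narrowest of the set after that of *Sfrp1*, and its bounds correspond to 0.825-fold and 1.18-fold. Transcripts of *Lef1* share stretches of at least 100 bases at 90% identity or more with transcripts of 110 other genes, so part of its reads may be uncertain.

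*Nkd1* (chr8:88521354-88594884, + strand), a feedback inhibitor, had left normalized counts of 84.3, 84.1, 143 and 110, and right normalized counts of 103, 116, 123 and 91.4. It was higher on the right in the first 2 embryos and on the left in the other two. Its log2 fold change of left over right was −0.10 with SE 0.143, an interval from −0.41 to 0.21 and an adjusted p of 0.987 in edgeR's test.

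*Sp5* (chr2:70474923-70477729, + strand) varied most between the sides of an embryo. Left normalized counts were 49.5, 17.0, 61.9 and 61.9, and right normalized counts 16.1, 48.0, 52.0 and 34.9. The sides thus differed widely in L29-3 and in L43-5, with log2 ratios of left to right of 1.60 and −1.48, in opposite directions. The 95% counting intervals of the log2 ratio of left to right were 0.74 to 2.61 in L29-3 and −2.19 to −0.86 in L43-5, so neither difference is within counting error even though raw counts were only 13 to 90. Over the 4 pairs the log2 fold change was 0.16 with SE 0.368, an interval from −0.64 to 0.96 and an adjusted p of 0.990 in edgeR's test. Leaving out L43-5 gave 0.79, past the threshold of the study with an adjusted p of 0.969, and leaving out L29-3 gave −0.20. Transcripts of *Sp5* and *Sp9* share a stretch of at least 90% identity over at least 100 bases, so reads could be split between them.

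**Figure D3:**
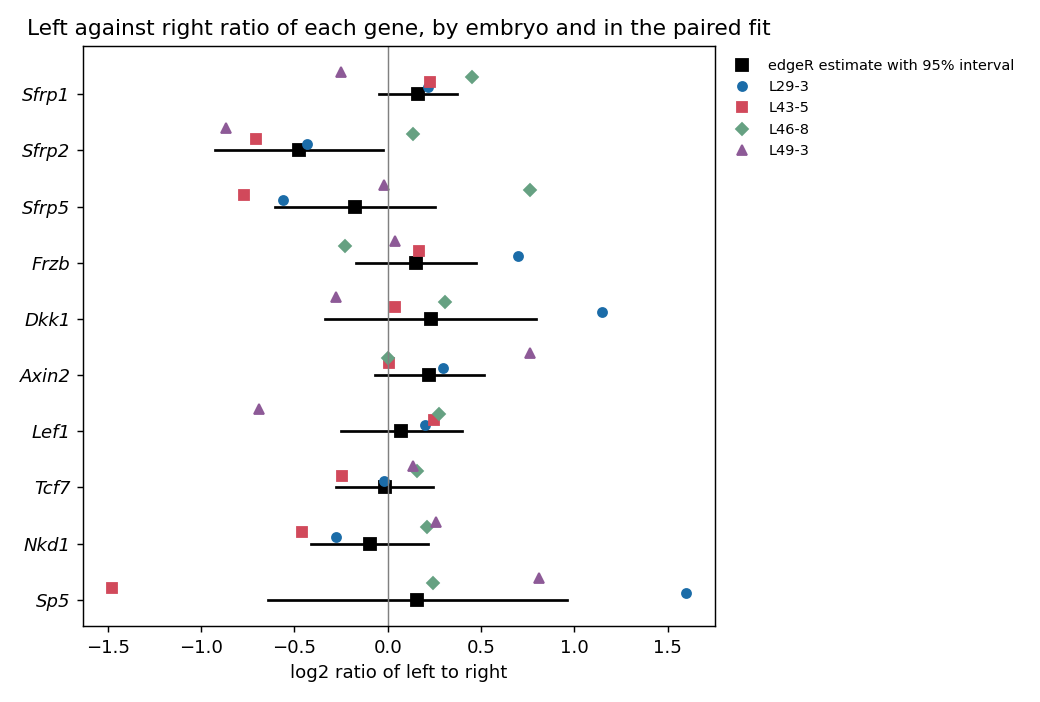
Log2 ratio of left to right of each gene, with coloured symbols for the 4 embryos and a black square with its 95% interval for the paired edgeR estimate. The interval of *Sfrp2* (−0.93 to −0.03) is the only one that does not reach 0, and the embryos of *Sp5* spread from −1.48 to 1.60.

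The spread over the 8 libraries was widest for *Dkk1* and *Sp5*, with highest over lowest normalized counts of 4.03 and 3.85, against 1.70 to 2.71 for the other 8 genes. Raw counts of both were low, 9 to 50 a library for *Dkk1* and 13 to 90 for *Sp5*. *Dkk1* and *Sp5* share a sequence feature. A link between this feature and the spread was not tested. RefSeq promoter windows of 300 bases (250 before the start of a gene and 50 after it) were at hand for 9 of the 10 genes, *Sfrp1* being the exception, and were searched on both strands for the TCF and LEF core motif, written CTTTGAT or as CTTTGAA. A match was found in the windows of *Sp5* and *Dkk1*, 2 of 9 genes, whereas 9.88% of 27025 genes with a window held one. The windows of the targets and effectors *Axin2*, *Lef1*, *Tcf7* and *Nkd1* held no match. The set was chosen partly as beta-catenin targets, so the 2 of 9 is not independent of that choice. A SOX-type motif, CTTTGTT, which does not overlap those matches, also occurred in these windows, 222 bases before the start of *Sp5* on the reverse strand and 98 bases before that of *Dkk1*, and 6.68% of all genes held it. The stretches are shown because they place the matches in their context, with the TCF and LEF match in capitals: for *Sp5* the 250 bases before the start at chr2:70474673-70474922 (+ strand), where the match begins 104 bases upstream, and for *Dkk1* the 29 bases around the match at chr19:30549596-30549624 (− strand), 117 bases upstream of the RefSeq start and inside the first exon of the GENCODE annotation, whose transcript starts farther upstream. Both are of GRCm38.p6 and written 5′ to 3′. A match describes these letters and is no evidence of binding.
Sp5: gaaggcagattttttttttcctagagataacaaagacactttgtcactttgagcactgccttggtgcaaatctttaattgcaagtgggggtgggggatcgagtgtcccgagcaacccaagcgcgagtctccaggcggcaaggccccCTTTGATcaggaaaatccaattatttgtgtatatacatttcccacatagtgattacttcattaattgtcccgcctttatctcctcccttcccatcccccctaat
Dkk1: tcctcccaaagCTTTGAAatcccatcccg

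Differences between embryos were read from the same fit. The F-test of the embryo terms in edgeR gave an unadjusted p of at most 0.05 for 4 of the 10 genes, *Frzb*, *Sfrp1*, *Sfrp5* and *Tcf7*, against 9.99% of all genes tested. The 2 libraries of an embryo are its 2 sides, so this test sets the differences between embryos against the spread between the sides of an embryo, with no replicate of a side. After adjustment 0 of the 10 genes passed 0.05, against 0.174% of all genes, with the smallest adjusted p, 0.196, for *Frzb*. DESeq2's likelihood ratio test put 2 genes at an unadjusted p of at most 0.05 and limma-voom 5, and neither put any below 0.05 after adjustment.

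The 3 antagonists of this group separated embryo L49-3 from the rest in opposite directions. The mean normalized count of *Frzb* over both sides was 139 in L49-3 against 68.2, 98.0 and 84.7 in L29-3, L43-5 and L46-8 (adjusted p = 0.196 in edgeR's F-test). *Sfrp1* was likewise highest in L49-3, at 828 against 659, 644 and 543 (adjusted p = 0.224). *Sfrp5* was lowest there, at 157 against 281, 257 and 335 (adjusted p = 0.362), and *Tcf7* as well, at 84.0 against 108, 113 and 132 (adjusted p = 0.409). Both sides of L49-3 lay above the other 6 libraries for *Frzb* and *Sfrp1* and below them for *Sfrp5* and *Tcf7*. Without L49-3, *Frzb*, *Sfrp5* and *Tcf7* were no longer at an unadjusted p of at most 0.05 while *Sfrp1*, *Lef1* and *Nkd1* were, and the adjusted p was 0.985 for each of these 6 genes. The cardiomyocyte sum of L49-3 was 881 (left) and 2858 (right), against 2419 to 6898 in the other libraries, beside its low inflow field and high neural tube sums given above. What these differences in makeup contribute to the values of the 4 genes was not tested.

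The remaining 6 genes were above an unadjusted p of 0.05 in that F-test. *Dkk1* ran from 18.1 in L29-3 through 25.7 in L46-8 and 27.0 in L43-5 to 41.0 in L49-3 as mean normalized counts, the widest range of embryo means of the 10 genes at 2.26-fold (adjusted p = 0.561 in edgeR's F-test). *Lef1* and *Nkd1* were both highest in L46-8, at 146 and 133, with adjusted p of 0.554 and 0.552 in that test. *Axin2* was the steadiest gene, with embryo means from 116 to 130 and an adjusted p of 0.949, and *Sfrp2* (35.4 to 50.2, adjusted p = 0.854) and *Sp5* (32.5 to 56.9, adjusted p = 0.801) showed no difference between embryos that exceeded the spread between sides.

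**Figure D4:**
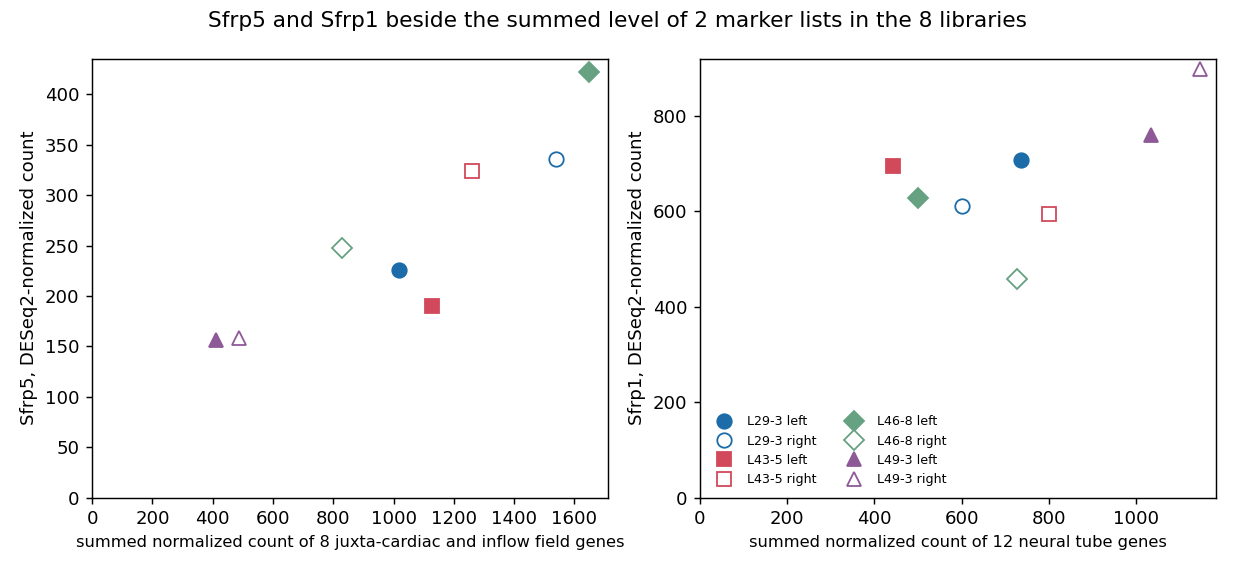
Normalized counts of *Sfrp5* against the summed normalized count of 8 juxta-cardiac and inflow field genes (left panel) and of *Sfrp1* against that of 12 neural tube genes (right panel), 1 point for each of the 8 libraries, filled for left and open for right, with axes from 0. Both libraries of L49-3 lie apart, at inflow field sums of 410 and 487 and neural tube sums of 1034 and 1147. Within L43-5 and L46-8, *Sfrp1* was higher on the left and the neural tube sum on the right. The panels were chosen after the values were seen, and the libraries come from only 4 embryos.

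Around these 10 genes, 79 other genes of the pathway were listed in 5 groups, and 51 of them passed the filter. Past the threshold of the study 0 were higher and 2 were lower on the left, 2 of 51 against the 3.05% of all genes given above, and 0 had an adjusted p under 0.05 in edgeR's test, with 2 at an unadjusted p under 0.05. DESeq2 called 0 of them past the threshold and limma-voom 3. The 2 genes were *Tnfrsf19*, a receptor that the pathway induces, at a log2 fold change of left over right of −0.34 (lower on the left in 4 of 4 embryos), and *Tcf7l2*, which encodes TCF4, at −0.36 (lower on the left in 3 of 4), each with an adjusted p of 0.987 in edgeR's test. *Tnfrsf19* had left normalized counts of 92.4, 98.4, 100.1 and 104, and right normalized counts of 118, 139, 119 and 118, so that its sides did not overlap. *Tcf7l2* had 108, 78.9, 112 and 101 on the left and 87.9, 104, 156 and 183 on the right, and its sides overlapped. The *Tnfrsf19* call was lost without L43-5 (−0.27) and in DESeq2 (−0.33). That of *Tcf7l2* was lost without L43-5 (−0.35), L46-8 (−0.32) or L49-3 (−0.22), without the block (−0.38) and in DESeq2 (−0.37). The neural tube sum was higher on the same side as *Tcf7l2* in 4 of 4 embryos, and its part in the *Tcf7l2* difference was not tested.

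By role, the other extracellular and membrane inhibitors had 8 of 20 genes tested, 7 of them with a log2 fold change above 0, a median of 0.16 and none past the threshold. *Sfrp4*, *Dkk2*, *Dkk4*, *Wif1* and *Cer1* were at mean normalized counts of at most 2.82 and were not tested. Of the secreted antagonists of this list, *Draxin* and *Dkk3* were tested, at mean normalized counts of 38.9 and 24.3 and log2 fold changes of −0.10 and 0.02. All 7 tested co-receptors and R-spondin genes of 11 had a log2 fold change above 0, with a median of 0.19 and none past the threshold. Their summed normalized count over the 11 genes was higher on the left in 3 embryos but not in L29-3, at 1236 (left) and 1285 (right). *Rspo1*, a secreted amplifier of the pathway, had the largest log2 fold change of them, 0.71 (adjusted p = 0.987 in edgeR's test), on a mean normalized count of 19.3. The destruction complex (15 of 16 tested, median 0.06), the nuclear TCF partners (14 of 16, median 0.01) and the other target and feedback genes (7 of 16, median −0.09) had 0, 1 and 1 genes past the threshold. All these medians are log2 fold changes of left over right, to be read beside −0.0042 for all genes. The counts above 0 are to be read beside 4734 of the 9744 genes tested.

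The genes with the most similar pattern over the 8 libraries were found by Pearson correlation of log2 TMM-normalized CPM among genes with a mean normalized count of at least 50, 6957 for *Sfrp2*, *Dkk1* and *Sp5*, which were below that level themselves, and 6956 for the others. For *Sfrp1* they were *Dido1* (r = 0.970), *Zmynd19* and *Timm17a*, for *Sfrp2* *Chpf* (0.974), *Ebna1bp2* and *Srl*, and for *Sfrp5* *Arfgef1* (0.966), *Ppm1d* and *Cdk16*. For *Frzb* they were *Rpl10* (0.990), *Mtmr12* and *Cxcr4*, and for *Dkk1* *9930021J03Rik* (0.983), *Chchd4* and *Zfp512*. Among the targets, *Axin2* was most like *Tmem127* (0.973), *Arl5a* and *Ireb2*, *Lef1* like *Lrrc41* (0.977) and *Brd1*, and *Tcf7* like *Daam1* (0.962), *Kif7* and *Actn4*. *Nkd1* was most like *Ercc6l* (0.913), *Tob2* and *Fbxw2*, and *Sp5* like *Ecpas* (0.933), *Bin1* and *Laptm4b*. With 8 libraries from 4 embryos, values this high occur for many genes: the gene in place 100 still had r between 0.712 and 0.838.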

How the data were processed

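Left and right heart fields of 4 embryos were sequenced as 8 libraries. The authors aligned reads to GRCm38 with Hisat2, excluded duplicates, counted reads per gene with featureCounts and deposited these counts without normalization; tool versions and the use of strand are not given in the sources used here. Symbols, positions and lengths were taken from GENCODE vM21, promoter windows from RefSeq (GRCm38.p6). Left was set against right by the quasi-likelihood test of edgeR 4.0.16 (R 4.3.3) with TMM normalization and a block for the embryo, since both sides come from 1 animal. The test was run on 9744 genes with 20 or more DESeq2-normalized counts in 4 or more libraries. The method was tested on simulated data with larger changes than the estimates for the 10 genes, which does not measure its power here. Normalized counts are divided by DESeq2 size factors, and ratios of single embryos use a prior count of 0.5. The 4 embryos are separate animals. Library totals ranged from 1147446 to 3520753. Every gene of the set is named, as are other pathway genes past the threshold of the study, 4 at most per list, and 3 genes of most similar pattern per gene, of which 1 is not reported here; other named genes were chosen after their values were seen. The genes and lists were chosen with earlier results of these data known. Alternatives were DESeq2 size factors, a minimum of 10 counts per library, no filter, DESeq2 1.42.0, limma-voom 3.58.1, no embryo block and each embryo left out.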

Additional observations from a re-analysis of the deposited data

How the results depend on the processing

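Of the 10 genes, 1 (*Sfrp2*) passed the threshold of the study, and the count stayed at 1 with DESeq2 size factors, with at least 10 counts in every library and in limma-voom. It was 0 in DESeq2 and ranged from 0 to 2 with an embryo left out: none without L29-3, *Sp5* without L43-5, *Sfrp2* and *Sfrp5* without L46-8 and *Sfrp1* without L49-3. Without the block that pairs the sides of an embryo the count was 1, so the pairing changed no call among the 10 genes. The log2 fold changes ranged, with an embryo left out, from −0.53 to 0.077 for *Sfrp5* (0.077 without L43-5), from −0.0103 to 0.24 for *Lef1* (−0.0103 without L43-5, −9.66e-05 without L46-8), from −0.0803 to 0.0882 for *Tcf7* (0.0882 without L43-5), from −0.21 to 0.0596 for *Nkd1* (0.0596 without L43-5) and from −0.20 to 0.79 for *Sp5* (−0.20 without L29-3, −0.0161 without L49-3). The cause of these changes of direction was not tested. *Sfrp1*, *Sfrp2*, *Frzb*, *Dkk1* and *Axin2* kept their direction under every alternative run, where *Dkk1* has no value with at least 10 counts in every library. Between embryos the count with an adjusted p under 0.05 was 3 with no filter (*Frzb*, *Sfrp1* and *Sfrp5*) and 0 to 1 with an embryo left out (*Sfrp5* without L46-8). Other pathway genes past the threshold numbered 2, with 11 with no filter, 0 in DESeq2, 3 without the block and 2 to 8 with an embryo left out, 8 of them without L29-3. Of the 10 ranks per kilobase, 6 were the same with the longest transcript and 3 without length. Each interval rests on 4 pairs, for which an exact two-sided sign-flip test of 1 gene cannot give a p below 0.125.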
